A study of Mus musculus with 8 samples.

Results

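The expression of 46 genes of cell proliferation was examined in skin fibroblasts of Nd2-mutant and control mice. Of these genes, 23 act in DNA replication (S phase) and 23 in mitosis, and they were chosen by name from the 18138 gene symbols of the array, with every probe that carries one of these symbols. Primary fibroblasts were isolated from the skin of mice 12 months of age and grown in DMEM with fetal calf serum and antibiotics up to the first passage. The Nd2-mutant strain was C57BL/6J-mtALR/LtJ and the control strain C57BL/6J-mtAKR/J. Both are conplastic strains, which share the C57BL/6J nuclear genome and carry the mitochondrial genome of another strain, and they differ in a single base of Nd2, a subunit of complex I of the respiratory chain. For each strain 4 cultures were measured on Illumina MouseRef-8 v2.0 BeadChips, 1 array per mouse, with 2 male and 2 female mice in each strain (Nd2-mutant mice 28 and 32, male, and 34 and 35, female, and control mice 16 and 17, male, and 15 and 37, female). The cultures were untreated as far as the labels say. How dense they were when RNA was taken is not given in the sources used here.

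A cell that enters the cycle switches on its genes in waves. At the passage from G1 to S phase, E2F transcription factors turn on the genes for loading and starting the replicative helicase, for copying DNA and for making deoxynucleotides. Later, in G2 and mitosis, a complex of B-MYB, FOXM1 and the MuvB core acts at an element called the CHR and turns on cyclin B, mitotic kinases, the chromosome passenger proteins, spindle motors and the anaphase-promoting machinery. In resting or senescent fibroblasts the RNA of both waves is low, and the RNA of these genes is widely used as a sign of how many cells of a culture are cycling. In RNA of whole cultures, a smaller share of cycling cells and less RNA per cycling cell cannot be told apart.

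The letters E2F factors and the CHR are known by were looked for in the promoters, and 4 promoters that hold them are shown so that both elements can be seen. These were chosen after the search, as the 2 of each list with the highest intensities among the tested genes whose window held E2F letters (S-phase) or CHR letters (mitotic). Promoter windows of 300 bases, from 250 bases before to 50 bases after the annotated start, came from RefSeq (GRCm38.p6) for 37 of the 46 genes. Genes without a window were Ccna2, Ccne2, Foxm1, Mcm4, Gins1, Gins2, Kif20a, Tpx2 and Aurkb. In the following 2 S-phase promoters, written 5′ to 3′ along the gene, capitals mark the E2F letters TTTCGCGC, TTTGGCGC, TTTCCCGC or TTTGCCGC on either strand, which overlap where 2 matches share bases.
Mcm5 (chr8:75109259-75109558, plus strand): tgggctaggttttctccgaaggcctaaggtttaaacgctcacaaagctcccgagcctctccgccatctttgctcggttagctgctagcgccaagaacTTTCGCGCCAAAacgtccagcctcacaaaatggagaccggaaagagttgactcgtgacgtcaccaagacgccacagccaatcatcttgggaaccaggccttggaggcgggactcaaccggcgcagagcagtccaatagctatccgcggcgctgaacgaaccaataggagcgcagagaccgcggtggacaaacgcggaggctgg
Mcm6 (chr1:128359656-128359955, minus strand): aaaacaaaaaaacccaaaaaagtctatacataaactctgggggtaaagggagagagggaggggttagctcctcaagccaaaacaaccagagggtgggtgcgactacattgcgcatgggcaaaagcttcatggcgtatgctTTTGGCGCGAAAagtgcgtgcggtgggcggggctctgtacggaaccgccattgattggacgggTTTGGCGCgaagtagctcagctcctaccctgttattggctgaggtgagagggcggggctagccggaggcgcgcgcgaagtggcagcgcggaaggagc
Both genes encode subunits of the MCM helicase, which unwinds DNA at the replication fork. In the following 2 mitotic promoters, capitals mark the CHR letters TTTGAA or TTCGAA and the CCAAT letters, on either strand.
Prc1 (chr7:80294201-80294500, plus strand): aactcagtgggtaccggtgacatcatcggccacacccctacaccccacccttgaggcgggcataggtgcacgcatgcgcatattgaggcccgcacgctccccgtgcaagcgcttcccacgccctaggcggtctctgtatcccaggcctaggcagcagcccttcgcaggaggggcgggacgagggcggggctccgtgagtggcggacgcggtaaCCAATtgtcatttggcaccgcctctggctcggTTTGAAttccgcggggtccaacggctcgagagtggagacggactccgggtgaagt
Cenpa (chr5:30666636-30666935, plus strand): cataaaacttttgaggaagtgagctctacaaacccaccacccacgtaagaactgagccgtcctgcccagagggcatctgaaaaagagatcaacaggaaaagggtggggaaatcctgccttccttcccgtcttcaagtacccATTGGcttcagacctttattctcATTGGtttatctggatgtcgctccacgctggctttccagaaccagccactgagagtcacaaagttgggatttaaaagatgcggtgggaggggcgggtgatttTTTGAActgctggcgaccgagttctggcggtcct
Prc1 bundles the microtubules of the spindle midzone and Cenpa is the histone H3 variant of the centromere. In both, the CHR letters lie beside the annotated start and a CCAAT lies upstream of them.

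E2F letters were found in 8 of 19 S-phase genes with a window (42.1%) and in 0 of 18 mitotic genes, against 2.6% of all 27025 genes of the promoter table and 4.75% of the 5180 genes with both a window and a tested probe. The genes were Cdc6, Cdt1, Mcm3, Mcm5, Mcm6, Mcm7, Pola1 and Rfc3. CHR letters were found in 13 of 18 mitotic genes (72.2%), each of which also held a CCAAT, and in 3 of 19 S-phase genes (15.8%). Among all 27025 genes, 21.7% held CHR letters and 9.65% held both CHR and CCAAT letters. The 13 mitotic genes also had CHR letters that began no more than 50 bases before the annotated start, which was true of 6.12% of all genes and of 0 of 19 S-phase genes, a distance that was chosen after the positions had been seen. The split was less sharp in other genes of the same phases, which are described below. There, E2F letters were found in 16 of 40 S-phase and 7 of 57 mitotic genes (40% and 12.3%). CHR letters within the same distance were found in 7 of 40 S-phase and 35 of 57 mitotic genes (17.5% and 61.4%). The lists were drawn up from known functions, so that these shares describe the lists and test nothing. A match of letters is not a binding site. Birc5, Ccnb1, Cenpe, Mad2l1 and Nusap1 were the mitotic genes without CHR letters in the window.

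**Figure D1:**
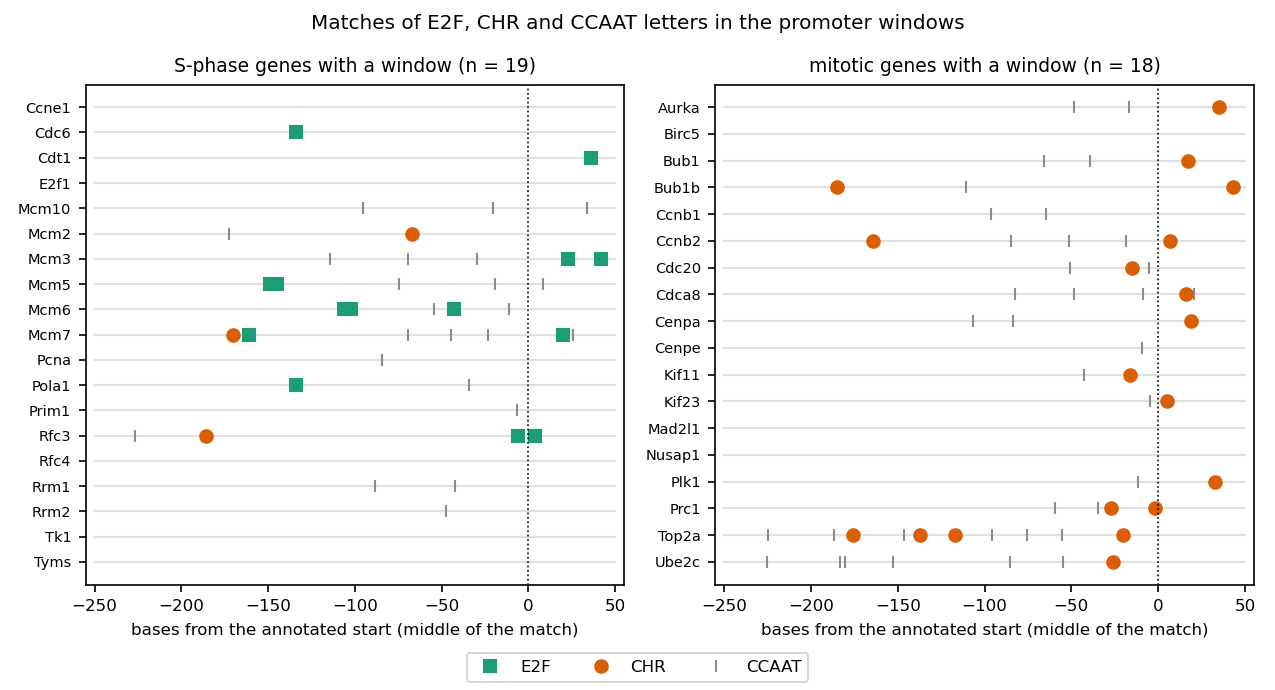
Positions of E2F letters (squares), CHR letters (circles) and CCAAT letters (ticks) in the promoter windows of 19 S-phase genes (left) and 18 mitotic genes (right), with bases from the annotated start on the horizontal axis; Mcm7 and Prc1 have more than 1 window and their matches are drawn together. In the mitotic panel 13 of 18 genes have a circle no more than 50 bases before the start or after it, and no square is drawn there.

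The array carried probes for 42 of the 46 genes under their symbols, 68 probes in all. No probe was found under the symbols Gins1, Gins2, Aurkb and Kif20a. The authors had quantile normalised the deposited intensities, with background subtracted where needed. Detection meant a detection p-value under 0.01, and the tests took in the 10414 of 25697 probes that were detected on every array of one strain or of both. This filter passed 47 probes of 34 of the genes, of which 24 probes represented 18 S-phase genes and 23 represented 16 mitotic genes. Of the 68 probes, 46 were detected on all 8 arrays and 17 on none. The primase-polymerase genes Prim1 and Pola1 and the mitotic genes Bub1, Ccna2, Ccnb2 and Cenpe each had a single probe, which was not detected on any array. Other members, such as Mcm4 and Cdc6, had probes detected on no array beside a probe detected on all 8. A probe without detection therefore does not show that the RNA was absent. Ube2c, a ubiquitin-conjugating enzyme of the anaphase-promoting complex, was detected on 1 control array. Ccne2, a cyclin of the G1/S transition, was detected on 3 Nd2-mutant and 2 control arrays, with intensities of 28.9, 25.5, 17.6 and 6.59 in Nd2-mutant mice 28, 32, 34 and 35 and of 0.52, 7.43, 28.9 and 35.2 in control mice 15, 16, 17 and 37. Levels of different probes are not compared here.

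The label of the cells was checked against markers. Of 12 fibroblast markers 11 had a probe, 10 or 11 of these were detected on each array, and their summed intensity lay between 30734 and 44920. Control mouse 15 stood apart. Its array correlated with the others at 0.934 on average over the tested probes, and the other 7 arrays at between 0.963 and 0.974. More probes were detected on each Nd2-mutant array (between 10973 and 11350) than on any control array (between 10663 and 10837). Whether this had a part in the strain differences was not tested. The summed intensity of 10 endothelial markers was 1408 in control mouse 15 and between 421 and 732 in the others, and that of 12 macrophage markers was 1770.5 in Nd2-mutant mouse 35 and between 258 and 607 in the others. Keratinocyte markers summed to 1643 in Nd2-mutant mouse 32 and 1352 in control mouse 15 and to between 234 and 880 in the others, with Krt1, Itga6 and Sfn not detected on any array. The 9 smooth muscle and pericyte markers summed to between 24067 and 26689 in the Nd2-mutant and between 22654 and 33867 in the control mice. The mean log2 level of the 7 that were tested, with 1 probe per gene, was lower in all 4 Nd2-mutant than in all 4 control cultures. It lay between -0.39 and -0.21 from the mean of the 8 cultures in the Nd2-mutant and between -0.07 and 0.71 in the control mice. Among the 7 probes of this mean, Notch3 alone kept the strains apart. Tagln, for example, lay between 353 and 870 in the Nd2-mutant and between 374 and 1112 in the control mice. Cnn1 and Rgs5 of this list were not detected on any array, nor were Kdr of the endothelial and Itgam and Ptprc of the macrophage markers. The part of these cells and of the array of control mouse 15 in the results was not tested.

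In the comparison of the strains, neither the S-phase nor the mitotic genes passed the test. With limma on log2(intensity + 16), 0 of 24 S-phase and 0 of 23 mitotic probes had an adjusted p under 0.05, as was the case for 0.0% of all 10414 tested probes, and the smallest adjusted p of a member was 0.639. The methods' t-test on the same values also gave 0 member probes after adjustment. At an unadjusted p under 0.05, there were 3 S-phase probes, those of Mcm7, Mcm10 and Cdt1, and 0 mitotic probes, against 7.63% of all tested probes. These 3 of 47 member probes were all lower in Nd2-mutant fibroblasts. Over all tested probes 3.13% were lower and 4.5% higher at this limit, and no weight is given to the direction, which was seen before it was counted. The methods' t-test gave 1 member probe at an unadjusted p under 0.05 (6.7% of all tested probes). When a mouse was left out, the count was 0 of 47 without Nd2-mutant mouse 35 (5.32% of all tested probes) or control mouse 16 (4.15%), 1 without Nd2-mutant mouse 28 (4.43%), 2 without control mouse 15 (7.79%), 4 without control mouse 17 (13.8%) and 5 without control mouse 37 (10.7%). The 4 values of one strain lay entirely beyond the 4 of the other for 0 of 47 member probes and for 4.37% of all tested probes.

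The median difference was small in both lists, below 0 for the S-phase and above 0 for the mitotic probes. Of the S-phase probes 15 were lower and 9 higher in the Nd2-mutant mice, with a median log2 difference (Nd2 mutant minus control) of -0.08, and with 1 probe per gene 12 genes were lower and 6 higher (median -0.13). Of the mitotic probes 7 were lower and 16 higher, with a median of 0.09, and with 1 probe per gene 6 genes were lower and 10 higher (median 0.04). The 16 include the Cdc20 probe ILMN_2698767 (difference 0.44), which entered the test through the Nd2-mutant arrays alone, so that the filter favoured its direction. Among all tested probes 5191 were lower and 5223 higher, with a median of 0.00093. The difference was smaller than the SD within the strains for 19 of 24 S-phase and 22 of 23 mitotic probes, and for 71.8% of all tested probes. The half-width of the 95% interval of a difference had a median of 0.41 in the S-phase and 0.41 in the mitotic list, so that differences of this size or less were not resolved for a typical member by 4 arrays against 4.

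**Figure D2:**
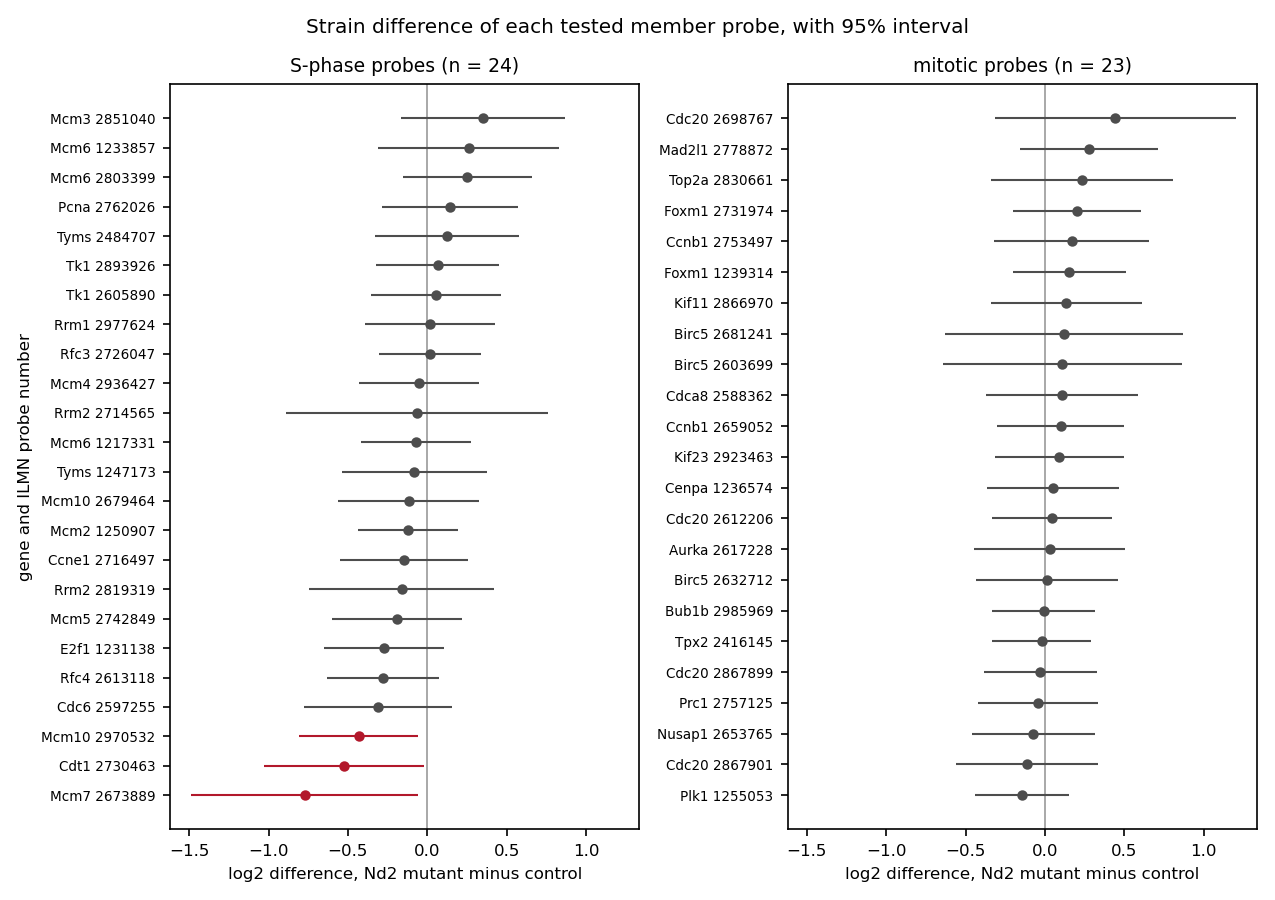
Log2 difference between the strains (Nd2 mutant minus control, horizontal axis) of each tested S-phase probe (left) and mitotic probe (right) with its 95% interval from limma, 4 mice per strain. Only the intervals of Mcm7, Cdt1 and 1 of 2 Mcm10 probes, drawn in red, do not include 0, and none of these probes passed the adjusted test.

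Helicase loading marks each origin of replication in G1, when Cdc6 and Cdt1 place the MCM ring on DNA, and Mcm10 helps the ring to start in S phase. Below, 4 intensities are always given in the order of Nd2-mutant mice 28, 32, 34 and 35 and then of control mice 15, 16, 17 and 37. Mcm7, a subunit of the ring, had intensities of 38.7, 51.1, 64.6 and 50.1 in the Nd2-mutant and of 141, 153, 37.5 and 101 in the control mice. Control mouse 17 lay below all Nd2-mutant mice, while the other 3 control mice lay above all of them. The log2 difference was -0.77 (standard error 0.32, 95% interval -1.49 to -0.06, limma adjusted p = 0.639), and p was 0.143 in the exact permutation test. Cdt1 had intensities of 306, 312, 223 and 257 against 584, 479, 290 and 311. Control mice 15 and 16 stood above the rest, and control mice 17 and 37 lay within the range of the Nd2-mutant mice. Its log2 difference was -0.53 (standard error 0.23, 95% interval -1.03 to -0.02, limma adjusted p = 0.639), and exact permutation gave p = 0.143. Without control mouse 15 the difference was -0.35.

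For Mcm10, the probe ILMN_2970532 gave 160, 150, 192 and 144 in the Nd2-mutant and 254, 232, 164 and 250 in the control mice. Nd2-mutant mouse 34 lay above control mouse 17, and otherwise the strains were apart. The log2 difference was -0.43 (standard error 0.17, 95% interval -0.81 to -0.06, limma adjusted p = 0.639, exact permutation p = 0.0571, where 4 against 4 cannot go below 0.0286). Mcm10 is also on a gene list that the study chose on these arrays, so that the list and this value are not independent. The dimmer probe of the gene, ILMN_2679464, gave 28.4, 21.7, 39.6 and 18.7 against 31.3, 22.9, 23.7 and 45.3. Here the strains overlapped widely, with a log2 difference of -0.12 (95% interval -0.56 to 0.32). Cdc6 had intensities of 45.9, 52.9, 64.5 and 54.4 against 63.1, 56.7, 56.8 and 121. Control mouse 37 stood alone above the other 7 cultures, which lay between 45.9 and 64.5, and the log2 difference was -0.31 (95% interval -0.78 to 0.16).

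The other subunits of the MCM ring differed less between the strains than Mcm7, and in both directions. Mcm2 had intensities of 185, 182, 243 and 190 against 200, 207, 224 and 241. Nd2-mutant mouse 34 was the highest of the 8 cultures and the other 3 Nd2-mutant mice were the lowest, with a log2 difference of -0.12 (95% interval -0.44 to 0.19). Mcm5 had 705, 717, 770 and 588 against 653, 861, 650 and 1078. Control mouse 37 was the highest and Nd2-mutant mouse 35 the lowest, and the difference was -0.19 (95% interval -0.60 to 0.22). Mcm3 and Mcm4 differed by 0.35 (95% interval -0.17 to 0.87) and -0.05 (95% interval -0.43 to 0.32). The 3 tested probes of Mcm6 differed by 0.26, 0.25 and -0.07, with intervals that all included 0.

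E2f1 is a transcription factor that drives this wave, and Ccne1, cyclin E1, activates a kinase of the G1/S transition. E2f1 had intensities of 457, 515, 465 and 473 against 656, 738, 445 and 520. Control mice 15 and 16 stood above the other 6 cultures, which lay between 445 and 520, and the log2 difference was -0.27 (95% interval -0.65 to 0.11). Control mice 15 and 16 thus had the highest values for E2f1, as for Cdt1 and Mcm7, although for Mcm7 control mouse 37 also lay above all Nd2-mutant mice. These genes were put together after their values were seen. On 11 of the 24 S-phase probes control mouse 15 was the lowest culture. Ccne1 was dim, with 17.1, 22.2, 30.7 and 22.9 against 15.997, 29.3, 29.6 and 36.4. The strains overlapped over nearly their whole range, and the difference was -0.15 (95% interval -0.55 to 0.25).

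Pcna is the sliding clamp that holds the polymerase on DNA, and Rfc3 and Rfc4 belong to the complex that loads it. The probe of Pcna was dim, with intensities of 34.5, 30.01, 27.2 and 35.8 against 23.4, 14.8, 35.8 and 39.7. Its lowest value was that of control mouse 16 and its highest that of control mouse 37, with the Nd2-mutant mice between them (log2 difference 0.14, 95% interval -0.29 to 0.57). Rfc4 differed by -0.28 (95% interval -0.63 to 0.08) and Rfc3 by 0.02 (95% interval -0.31 to 0.34).

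Ribonucleotide reductase (Rrm1 and Rrm2), thymidylate synthase (Tyms) and thymidine kinase (Tk1) supply deoxynucleotides. Rrm2 had the widest range of the S-phase probes, 1.92 on the log2 scale with the probe ILMN_2714565, which gave 75.4, 84.3, 112 and 57.2 against 26.4, 89.8, 127 and 144. Control mice 37 and 17 were the highest and control mouse 15 by far the lowest, and the strain difference was -0.06 (95% interval -0.89 to 0.76). The other probe, ILMN_2819319, gave 120, 142, 188 and 93.5 against 103, 183, 114 and 229. Control mouse 37 was again the highest, but control mouse 17, high with the first probe, was among the lowest here (difference -0.16, 95% interval -0.75 to 0.42). Tyms had 348, 393, 369 and 314 against 221, 302, 358 and 460 with the probe ILMN_2484707. Control mice 37 and 15 formed both ends and enclosed all Nd2-mutant mice, with a difference of 0.12 (95% interval -0.33 to 0.57). Tk1 had 290, 274, 411 and 294 against 249, 303, 272 and 401 with the probe ILMN_2605890. Nd2-mutant mouse 34 and control mouse 37 stood together above the other 6 cultures, and the difference was 0.05 (95% interval -0.36 to 0.46). Rrm1 differed by 0.02 (95% interval -0.39 to 0.43).

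In the mitotic list, genes of mitotic entry come first. Cyclin B1 (Ccnb1) activates the kinase CDK1, Foxm1 is a transcription factor of the G2 wave, and Plk1 and Aurka are kinases that build the spindle poles. Ccnb1 had intensities of 233, 220, 323 and 239 against 195, 150, 262 and 311 with the probe ILMN_2753497. Nd2-mutant mouse 34 and control mouse 37 were again the 2 highest, and the log2 difference was 0.17 (95% interval -0.32 to 0.66). Foxm1 had 139, 97.6, 149 and 104 against 116, 97.6, 77.9 and 125 with the probe ILMN_2731974. Nd2-mutant mice 34 and 28 were the highest and control mouse 17 the lowest, with a difference of 0.20 (95% interval -0.20 to 0.61). Plk1 varied least of the mitotic probes, with 527, 508, 665 and 586 against 639, 626, 605 and 651. The highest and the lowest value both came from Nd2-mutant mice, and the difference was -0.14 (95% interval -0.44 to 0.15). Aurka differed by 0.03 (95% interval -0.45 to 0.51).

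Birc5 (survivin) and Cdca8 (borealin) belong to the chromosomal passenger complex, and Mad2l1 and Bub1b to the checkpoint that holds Cdc20 inactive until the chromosomes are attached. The brightest probe of Birc5, ILMN_2632712, gave 522, 450, 472 and 379 against 303, 542, 437 and 562. The control mice spanned the whole range and enclosed the Nd2-mutant mice, and the difference was 0.01 (95% interval -0.43 to 0.46). Mad2l1 had 307, 267, 319 and 285 against 208, 174, 260 and 348. Here 3 control mice lay below all Nd2-mutant mice and control mouse 37 above them, with a log2 difference of 0.28 (95% interval -0.16 to 0.71). Cdc20, the activator of the anaphase-promoting complex, had 721, 648, 885 and 752 against 761, 767, 626 and 926 with its brightest probe, ILMN_2867899. Control mouse 37 and Nd2-mutant mouse 34 were the 2 highest, and the difference was -0.03 (95% interval -0.39 to 0.32). The probe ILMN_2698767 of the same gene had the widest range of the mitotic probes, 1.76 on the log2 scale, with 36.7, 26.6, 17.9 and 12.4 against 1.34, 11.02, 6.99 and 42.7. It was detected on all 4 Nd2-mutant arrays but on only 1 control array, that of mouse 37, which gave the highest value of all. Its log2 difference of 0.44 (95% interval -0.31 to 1.2) depends on the value added before the log2. The other 3 tested Cdc20 probes differed by between -0.11 and 0.04.

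Motors and spindle proteins (Kif11, Kif23, Prc1, Tpx2, Nusap1) and proteins of chromosome structure (Cenpa and Top2a, the topoisomerase that untangles sister chromatids) complete the list. Top2a had intensities of 458, 320, 423 and 289 against 215, 259, 308 and 523. Control mouse 37 was the highest and control mice 15 and 16 were the lowest, and the log2 difference was 0.23 (95% interval -0.34 to 0.81). Cenpa had 1681, 1424, 1815 and 1406 against 1204, 1369, 1535 and 2110.3. Control mouse 37 was again the highest and control mouse 15 the lowest (difference 0.05, 95% interval -0.37 to 0.46). The 5 motor and spindle genes differed by between -0.07 (Nusap1) and 0.13 (Kif11), with intervals that all included 0.

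**Figure D3:**
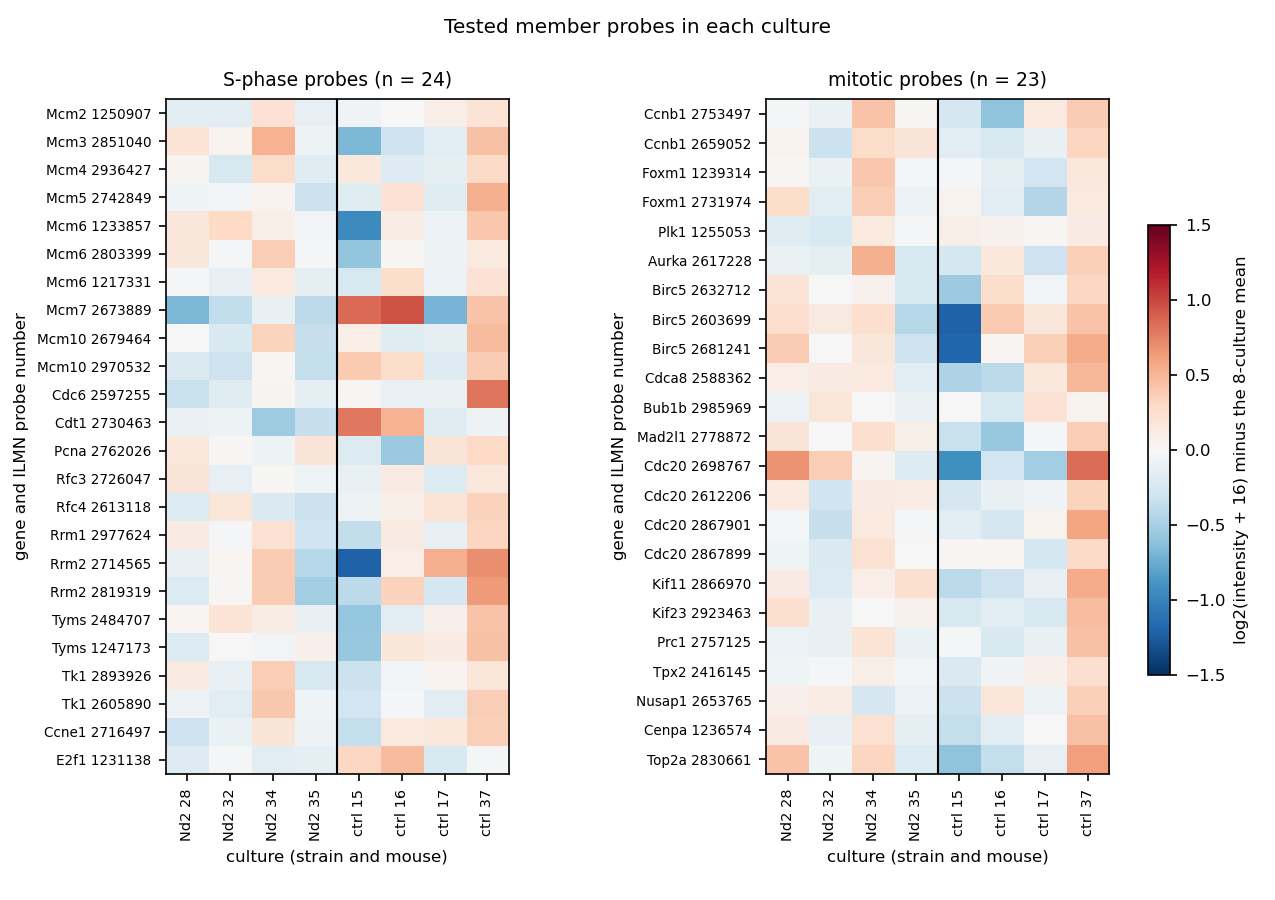
Log2(intensity + 16) of each tested S-phase probe (left, 24 probes) and mitotic probe (right, 23 probes) in the 8 cultures, as the difference from the probe's mean over the cultures (red, higher; blue, lower); the black line parts Nd2-mutant from control mice. The column of control mouse 37 is red for 22 of 24 S-phase and all 23 mitotic probes, and the darkest blue cells lie in the column of control mouse 15.

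Control mouse 37 had the highest value on most members of both lists, while the order of the other cultures differed between the lists. In control mouse 37, 22 of 24 S-phase and 23 of 23 mitotic probes lay above their mean over the 8 cultures, against 53.1% of all tested probes on this array. Control mouse 37 was the highest of the 8 on 13 S-phase (54.2%) and 17 mitotic probes (73.9%), against 9.52% of all tested probes. Nd2-mutant mouse 34 followed, with 18 of 24 and 20 of 23 probes above the mean (53.6% of all tested probes), and was the highest on 5 S-phase and 5 mitotic probes (9.64% of all tested probes). Both came from female mice. Control mouse 15, also female, was the lowest on 11 S-phase and 11 mitotic probes. This array was the lowest on 31.4% and the highest on 26.5% of all tested probes, but the highest on 2 S-phase and 0 mitotic probes. Without control mouse 15, control mouse 37 was the highest on 58.3% of S-phase and 73.9% of mitotic probes. Nd2-mutant mouse 35 had 2 of 24 S-phase and 6 of 23 mitotic probes above the mean.

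**Figure D4:**
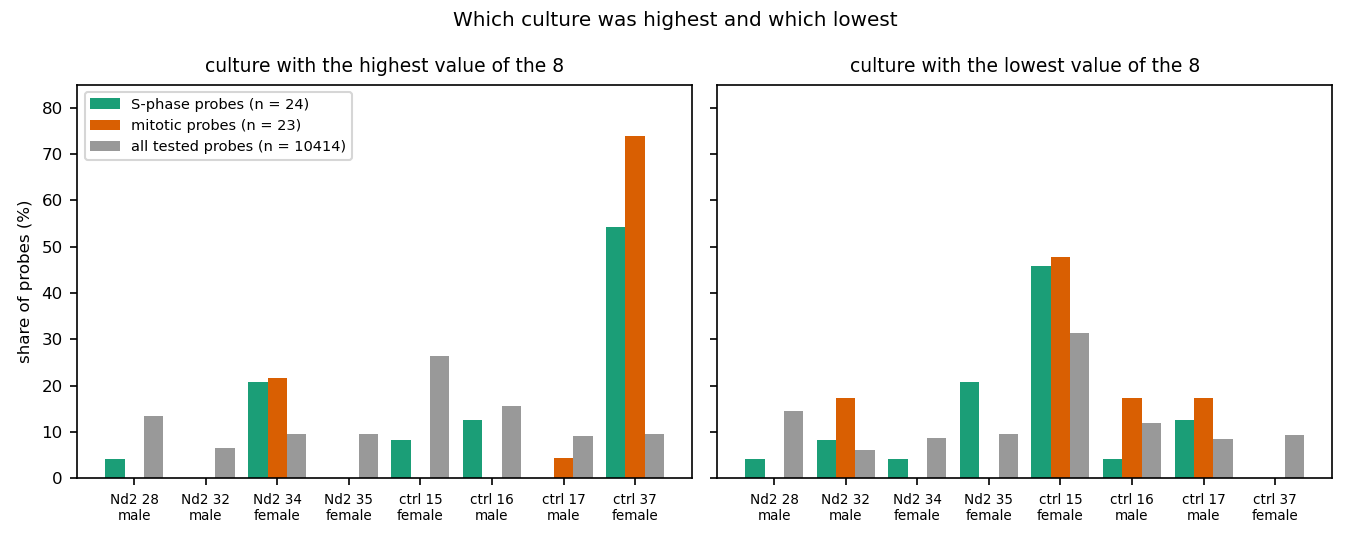
Share of S-phase probes (24), mitotic probes (23) and all tested probes (10414) on which each culture had the highest (left) or the lowest value (right) of the 8. Control mouse 37 held the highest value on 54.2% of S-phase and 73.9% of mitotic probes and on 9.52% of all tested probes.

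The mean of the S-phase genes, taken with 1 probe per gene as the log2 difference from the mean of the 8 cultures, was -0.10, -0.08, 0.08 and -0.19 in Nd2-mutant mice 28, 32, 34 and 35 and -0.05, 0.12, -0.11 and 0.34 in control mice 15, 16, 17 and 37. The strain means were -0.07 ± 0.12 (SD, n = 4) and 0.07 ± 0.20 (SD, n = 4), so that the strains overlapped and their difference of -0.15 was smaller than the SD of the control mice. Without control mouse 37 this difference was -0.06. The mean of the mitotic genes was 0.07, -0.07, 0.18 and -0.06 in the Nd2-mutant and -0.24, -0.16, -0.07 and 0.35 in the control mice. The control mice thus held both the highest and the 3 lowest values, and the strain means were 0.03 ± 0.12 (SD, n = 4) and -0.03 ± 0.26 (SD, n = 4). The strain difference of 0.06 became 0.19 without control mouse 37 and -0.01 without control mouse 15. No p-value is given for these means, which rest on chosen genes.

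**Figure D5:**
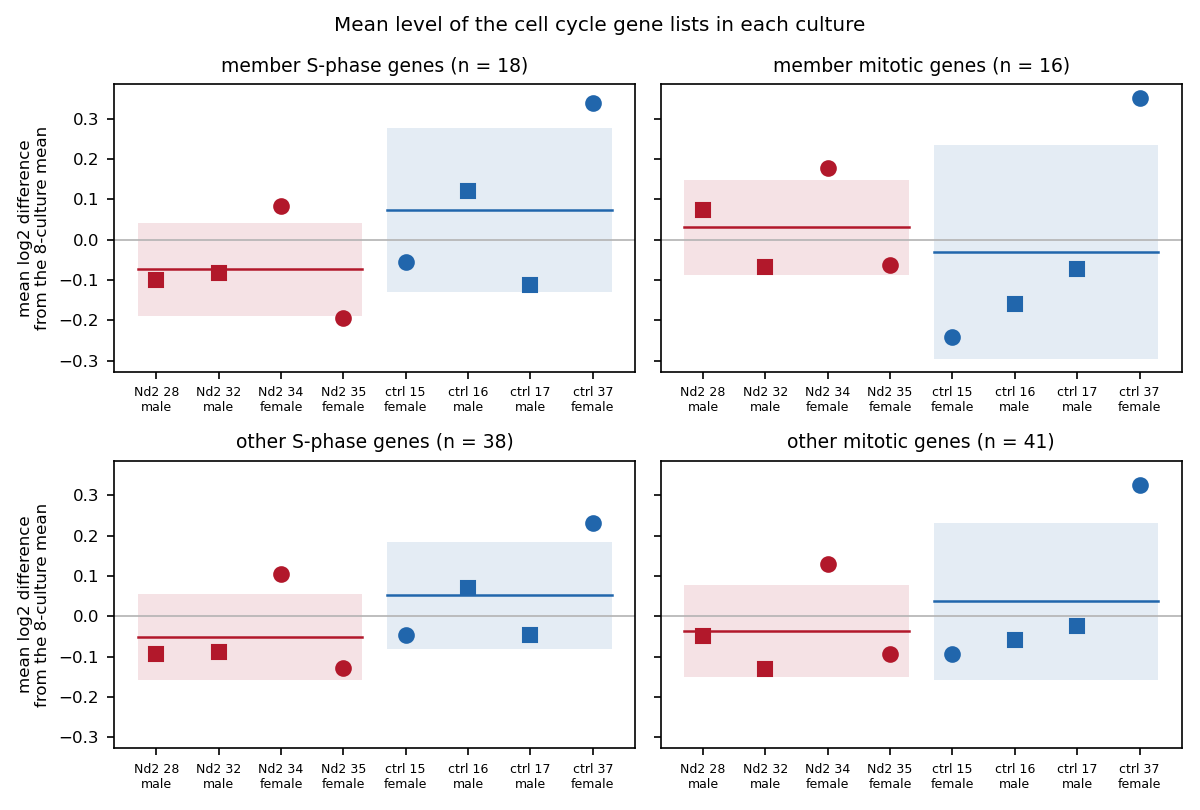
Mean log2 difference from the mean of the 8 cultures over the genes of each list (vertical axis) in each culture, for the S-phase and mitotic genes described here and for other genes of the same phases; squares are male and circles female mice, lines are strain means and shading is 1 SD, n = 4. Control mouse 37 is highest in all 4 panels, with 0.34 for the S-phase and 0.35 for the mitotic genes.

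Taken as a growth state, control mouse 37 had the highest RNA levels of both phases, and Nd2-mutant mouse 34 raised levels of both. Nd2-mutant mouse 28 was at 0.07 for the mitotic and -0.10 for the S-phase genes. Control mouse 16 stood the other way, at 0.12 for the S-phase and -0.16 for the mitotic genes. Nd2-mutant mice 32 and 35 and control mouse 17 were below the mean for both. Control mouse 15 was the lowest of all for the mitotic genes but near the middle for the S-phase genes, where its 3 genes of helicase loading and firing (Mcm10, Cdc6 and Cdt1) averaged 0.40 and its 4 genes of nucleotide supply -0.41. The S-phase mean minus the mitotic mean was -0.17, -0.02, -0.09 and -0.13 in the Nd2-mutant and 0.19, 0.28, -0.04 and -0.01 in the control mice. Control mice 15 and 16 lay above all Nd2-mutant mice here. Control mouse 37 (-0.013) was nearly level with Nd2-mutant mouse 32 (-0.017), and control mouse 17 lay within the range of the Nd2-mutant mice. For the other S-phase and mitotic genes the same quantity was between -0.04 and 0.04 in the Nd2-mutant and between -0.09 and 0.13 in the control mice.

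Different probes of 1 gene did not always rank the cultures alike. For the 9 member genes with more than 1 tested probe, the gap between a gene's highest and lowest probe, each centred on its mean, was widest in control mouse 15 for 4 genes and in control mouse 16 for 3. For Birc5 this gap was 0.66 in control mouse 15 and between 0.14 and 0.40 in the others, as the dimmer probes ILMN_2603699 and ILMN_2681241 gave 99.2 and 109 there against at least 182 and 215 elsewhere. For Mcm6 it was 0.72 in control mouse 15 and at most 0.41 in the others. The same was seen beyond the cell cycle, since of all 1850 genes with more than 1 tested probe the gap was widest in control mouse 15 for 41.3%, with a median gap of 0.32 there and between 0.15 and 0.23 on the other 7 arrays. How low control mouse 15 stood for a gene therefore depended on the probe.

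In other genes of the same phases, from lists drawn up by function, control mouse 37 was again the highest on average. Of 51 other S-phase genes 38 were tested (50 probes) and of 67 other mitotic genes 41 (56 probes). Control mouse 37 lay above the mean on 47 of 50 and 54 of 56 of these probes. None of these probes had an adjusted p under 0.05 in limma. At an unadjusted p under 0.05 there were 2 other S-phase probes (Pold3 and a dim Lig1 probe that entered the test through the control arrays alone) and 4 other mitotic probes (Mybl2, Kif15, Spc24 and Dlgap5), all lower in the Nd2-mutant mice, against 7.63% of all tested probes in either direction. Of the other S-phase probes 38 were lower and 12 higher, with a median log2 difference of -0.14 (29 genes lower and 9 higher with 1 probe per gene). Of the other mitotic probes 30 were lower and 26 higher, with a median of -0.03 (27 genes lower and 14 higher with 1 probe per gene). These counts include probes that entered through 1 strain alone, where the filter favours higher values. Through the Nd2-mutant arrays came other mitotic probes of Spc24, Cenpm, Ncapd2, Ncapg2, Melk, Zwilch and Shcbp1, all higher there (log2 differences between 0.02 and 0.48). Other S-phase probes of Orc1 and Rad51ap1 also came through the Nd2-mutant arrays, and probes of Rpa2, Lig1 and E2f2 through the control arrays. All of these S-phase probes were lower in the Nd2-mutant mice.

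Mybl2 encodes B-MYB, the subunit that turns the MuvB complex into an activator of mitotic genes. Its intensities were 66.9, 87.2, 86.2 and 73.3 in the Nd2-mutant and 130, 160, 88.6 and 143 in the control mice. All control mice lay above all Nd2-mutant mice, control mouse 17 by the smallest margin, and the log2 difference was -0.61 (standard error 0.18, 95% interval -1.01 to -0.22, limma adjusted p = 0.639), and exact permutation gave p = 0.0286, the smallest possible here. Dlgap5, which stabilises spindle fibres, was the only other of these 56 probes without overlap, at 62.5, 86.8, 81.3 and 77.7 against 104, 92.3, 92.1 and 117, and is named after its values were seen (log2 difference -0.33, 95% interval -0.65 to -0.02). The share without overlap, 2 of 56 probes, was close to the 4.37% of all tested probes. Kif15, a spindle motor, differed by -0.37 (95% interval -0.71 to -0.03) and Spc24, a kinetochore subunit, by -0.43 (95% interval -0.83 to -0.02). The dimmer Spc24 probe differed by 0.05, but it was detected on 4 Nd2-mutant and 3 control arrays and entered the test through the Nd2-mutant arrays alone. Pold3 and Pold1 are subunits of DNA polymerase delta and Lig1 is the ligase that seals the lagging strand. In the order Pold3, Pold1 and Lig1 they differed by -0.37 (95% interval -0.72 to -0.03), -0.37 (95% interval -0.76 to 0.01) and -0.44 (95% interval -0.85 to -0.02, with the dimmer of the 2 tested Lig1 probes, which was detected on 2 Nd2-mutant and 4 control arrays). The brighter Lig1 probe, detected on all 8 arrays, differed by -0.32 and was not called. Mybl2, Kif15, Pold3, Dlgap5 and Spc24 are on that list of the study as well.

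Genes of growth arrest, which include the CDK inhibitors, the pocket proteins and genes that rise in resting cells, were also measured. Of 23 such genes 17 were tested (23 probes), and 0 probes passed limma at an adjusted or an unadjusted p under 0.05. In this list 13 probes were higher and 10 lower in the Nd2-mutant mice, with a median of 0.09, but with 1 probe per gene 8 genes were higher and 9 lower, with a median of -0.0047. Cdkn1b, an inhibitor of cyclin-dependent kinases that holds cells in G1, had the smallest p of the list, with intensities of 83.1, 65.7, 47.1 and 64.1 against 77.3, 52.6, 28.3 and 22.7. Control mice 17 and 37 had the lowest values, and the strain difference was 0.47 (95% interval -0.12 to 1.07). The anti-proliferative gene Btg1 (ILMN_2866185) differed by 0.21 (95% interval -0.19 to 0.61) and the CDK inhibitor gene Cdkn2c by 0.17 (95% interval -0.15 to 0.48). Control mouse 37, the culture with the highest S-phase and mitotic means, lay above the mean of the 8 cultures on 14 of 23 probes of this list. Control mouse 15 was the lowest culture on 14 of 23 probes.

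Male and female mice were also compared, since each strain had 2 mice of each sex. The cultures with the highest levels were both from females, and so was control mouse 15, most often the lowest. With strain in the model, 0 of 47 member probes had an adjusted p under 0.05 between male and female mice in limma (0.0192% of all tested probes), and 0 had an unadjusted p under 0.05 (8.31% of all tested probes). Of the other genes of the same phases, 5 of 50 S-phase probes (Cdc7, Dnmt1, Cdc25a and 2 of Clspn) and 5 of 56 mitotic probes (Cdca2, Kif2c, Kif22 and 2 of Kif18b) had an unadjusted p under 0.05, all with higher values in female mice, and 0 had an adjusted p under 0.05. Of the growth arrest probes, 3 of 23 (Rb1, Ccng1 and Tob1) had an unadjusted p under 0.05 in limma, all with higher values in male mice. Again 0 had an adjusted p under 0.05. Without control mouse 15 there were 5 member probes of 47 at the unadjusted limit (9.26% of all tested probes), without control mouse 37 there were 4 (17.4%), without Nd2-mutant mouse 35 there were 2 (4.79%) and without control mouse 16 there was 1 (7.1%). The interaction of strain and sex, which asks whether the strain difference differed between the sexes, was called for 0 of 47 member probes at an adjusted p under 0.05 (0.0096% of all tested probes) and for 0 at an unadjusted p (1.77%). At the unadjusted limit there were 7 member probes of 47 without control mouse 37 (16.1% of all tested probes), 4 without control mouse 15 (4.32%) and 1 without control mouse 16 (1.82%). With 2 mice per sex and strain, the standard error of an interaction was large, for example 0.66 for Mcm7.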

How the data were processed

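RNA of skin fibroblasts of 4 Nd2-mutant and 4 control mice, 1 array each, was measured. The authors took the probe intensity from GenomeStudio, quantile normalised it and subtracted background where needed, and it was deposited without a log. Each intensity has a deposited detection p-value. The 2 deposited tables hold the same values, so no other background correction could be run. The arrays carry no chip name.

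Tests used log2(intensity + 16), with negative intensities taken as 0. Probes detected (p under 0.01) on all 4 arrays of a strain were tested with limma 3.58.1 in R 4.3.3 (lmFit and eBayes, 2-sided, Benjamini-Hochberg over all 10414 tested probes, threshold 0.05), and single probes with a 2-sided exact permutation test. Sex and its interaction with strain were fitted in the same way. The steps were tested on simulated data. The numbers of arrays and of detected probes limit the precision.

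Members and lists were chosen with earlier results of these data known. By rule, values in every culture are given for members fixed by role, for the 3 probes of each list with the smallest strain p, for the probe with the widest range and for any that passed a test. Of the other pathway and growth arrest lists, the 3 genes with the smallest p are named. Alternatives were another value added, the linear scale, other detection filters, the methods' t-test, a trend, array weights, sex as a term, median centring, each sex alone and each mouse left out. Probe sequences were not used here.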

Additional observations from a re-analysis of the deposited data

Results flagged for a closer look

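In groups of 4 cultures, 4 values lay so far from the other 3 of their strain that the gap to the nearest, divided by the range of the group, passed Dixon's 95% critical value. These were Nd2-mutant mouse 34 for Mcm2 (0.8661), control mouse 37 for Cdc6 (0.8653), Nd2-mutant mouse 34 for Tk1 (0.8294) and control mouse 37 for the mean of the other mitotic genes (0.8344). Each was the highest value of its group. Of the 72 groups examined, chance would mark about 1 in 20, or 3.6, so that 4 is close to the number that chance gives.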

How the results depend on the processing

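No adjusted call was made for a member probe in the strain, sex or interaction comparison under any alternative that was run, and the smallest adjusted p of a named member probe in the strain comparison was 0.174, for Mcm7 without control mouse 17. At an unadjusted p under 0.05, the 3 member probes of the strain comparison became 1 in each of 5 settings, given here with the share over all tested probes. This share was 7.34% with an added value of 1, 6.02% on the linear scale and 6.7% with the methods' t-test. It was 4.82% in male mice alone and 3.04% in female mice alone, against 7.63% in the main setting. When a mouse was left out, the member count lay between 0 and 5. The count of 0 for sex became 2 on the linear scale and 2 without a detection filter, and between 0 and 5 when a mouse was left out, and that for the interaction between 0 and 7. Over all tested probes these shares ranged when a mouse was left out from 4.15 to 13.8% for strain, from 4.79 to 17.4% for sex and from 0.615 to 16.1% for the interaction. The cause of these ranges was not tested. For sex, the share over all probes was 7.33% on the linear scale and 6.78% without a detection filter, against 8.31% in the main setting. Of the 22 named member probes, 10 kept the direction of their strain difference under every alternative and 12 changed it at least once. The array weights were 0.19 for control mouse 15, 0.62 for control mouse 16 and between 1.14 and 1.73 for the other arrays, so that control mouse 15 counted least. With array weights the log2 difference was -0.041 for Pcna, -0.080 for Tyms, -0.049 for Tk1, -0.014 for Ccnb1, -0.13 for Birc5, -0.12 for Cenpa and -0.031 for Top2a. In male mice alone it was -0.023 for Tk1 and -0.0055 for Birc5, and in female mice alone 0.057 for Ccne1, 0.23 for Rrm2 (ILMN_2714565) and -0.039 for Cdc20 (ILMN_2698767). On the linear scale Birc5 differed by -5.18 intensity units. When a mouse was left out, the difference also crossed 0, lying between -0.021 and 0.26 for Pcna, between -0.32 and 0.025 for Rrm2 (ILMN_2819319), between -0.050 and 0.28 for Tyms, between -0.072 and 0.18 for Tk1, between -0.48 and 0.16 for Rrm2 (ILMN_2714565), between -0.0049 and 0.32 for Ccnb1, between -0.17 and 0.12 for Birc5, between -0.12 and 0.061 for Cdc20 (ILMN_2867899) and between -0.063 and 0.20 for Cenpa. The strain difference of the S-phase mean stayed between -0.21 and -0.06 and that of the mitotic mean between -0.01 and 0.19 when a mouse was left out. The shares of probes on which control mouse 37 was highest were recomputed under alternatives chosen after seeing the data (another value added, median centring, 1 probe per gene, without control mouse 15) and lay between 50 and 58.3% for the S-phase and between 68.8 and 73.9% for the mitotic probes.

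No paired analysis was possible because no mouse number is shared between the strains. Normexp from non-normalised values was not run, as the values used were normalised, nor was a block for the chip, as no chip is named. Without a detection filter, 3 probes of the whole array had an adjusted p under 0.05 between the strains, none of them a member, and the methods' t-test gave 1. With 4 arrays per strain, a typical 95% interval of a member reached 0.41 to either side.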
